A study of Mus musculus with 6 samples.

Results

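Adipsin and 8 further complement genes made in fat tissue were followed in the epididymal white adipose tissue of mice labelled ZFP251 knockout (KO) and wild type (WT). The set was chosen by gene symbol and holds Cfd, C3, C4b, C2, Cfb, C1ra, Serping1, Cfp and C7. All 9 were found among 21829 genes of the table and all 9 reached the minimum for testing, a mean of 1 FPKM, as did 12539 genes in all. FPKM is a fragment count divided by transcript length and by the library's mapped fragments. The 6 libraries, 3 under each genotype label, came from C57BL/6J males at 20 weeks of age, fed a normal diet, and the wild types are named as littermates. The labels do not describe the ZFP251 allele, whether the deletion is limited to a cell type, or whether each library is a separate mouse. P-values therefore rest on the spread between libraries, part of which may be technical. The series addresses the function of ZFP251, a zinc finger protein, in this visceral fat pad. Values below are given in the order of libraries 1, 2 and 3 of each group.

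Complement is a cascade of blood and tissue proteins that tag targets and recruit immune cells. The classical and lectin routes start with recognition proteins bound to proteases such as C1r, and they assemble a C3-cleaving enzyme from C4 and C2. The alternative route builds its own C3-cleaving enzyme from C3 and factor B after factor D has cut factor B. Factor D is adipsin, the product of Cfd, which is secreted mainly by fat cells in the mouse. Cleaved C3 leads to the terminal pore, to which C7 contributes, while properdin (Cfp) stabilises the alternative enzyme and the C1 inhibitor (Serping1) blocks C1r and C1s.

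The libraries had features that touch every result. Zfp251 itself went against the labels, with 6.48, 5.86 and 6.48 FPKM in the libraries labelled KO but only 3.73, 3.56 and 2.95 FPKM in the WT group. Every direction below is that of the libraries labelled KO against those labelled WT. Since the labels do not describe the ZFP251 allele, its effect on the level of Zfp251 RNA is unknown. Whether the labels are exchanged was not tested, and if they were, every direction would turn. Depth is unknown because the table holds no counts. Low values put the depths of 4 libraries between 0.651 and 0.946 of that of WT 1, and gave no clear step for WT 3. The FPKM of all genes summed to 637902 in WT 3 and to between 426966 and 472120 in the other 5 libraries. WT 1 held transcripts of ciliated epithelium that WT 2 and WT 3 lacked. Foxj1, the regulator of motile cilia, stood at 13.9 FPKM in WT 1, at 0.034 FPKM in WT 2 and at a listed 0 in WT 3, against 20.0 to 44.2 FPKM in the libraries labelled KO. The tissue label was matched by fat cell genes: all 16 listed adipocyte markers passed the filter, and their levels summed to between 30700 and 65917 FPKM per library.

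Of the 9 genes, 7 were lower on average in the libraries labelled KO, C2 and Cfd by the most, and C7 and C4b were higher. No member passed limma's adjusted threshold of 0.05, and neither did any of the 12539 genes, a background of 0%. At an unadjusted limma p under 0.05 stood 2 of 9 members, C2 and Cfp, both lower; of all genes 13.6% reached that p, with 4.43% lower and 9.13% higher. The median log2 difference of the 9 was -0.30 against -0.05 for all genes tested, of which 59.2% lay below 0. In 4 members, Cfd, C2, Cfb and C1ra, every library labelled KO lay below every WT library, against 12.2% of all genes. These 4 are the serine proteases of the set, which act in its early steps. The complement proteases outside the set that are described below did not all share this: C1rl lay below WT, C1s1 and Masp1 overlapped and Cfi lay above. The size of the difference did not follow this split within the set. Cfp and C3, which are no proteases, differed by -0.46 and -0.50 on the log2 scale, but Cfb and C1ra by -0.18 and -0.30. In no member did every library labelled KO lie above WT, against 10.1% of all genes.

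**Figure D1:**
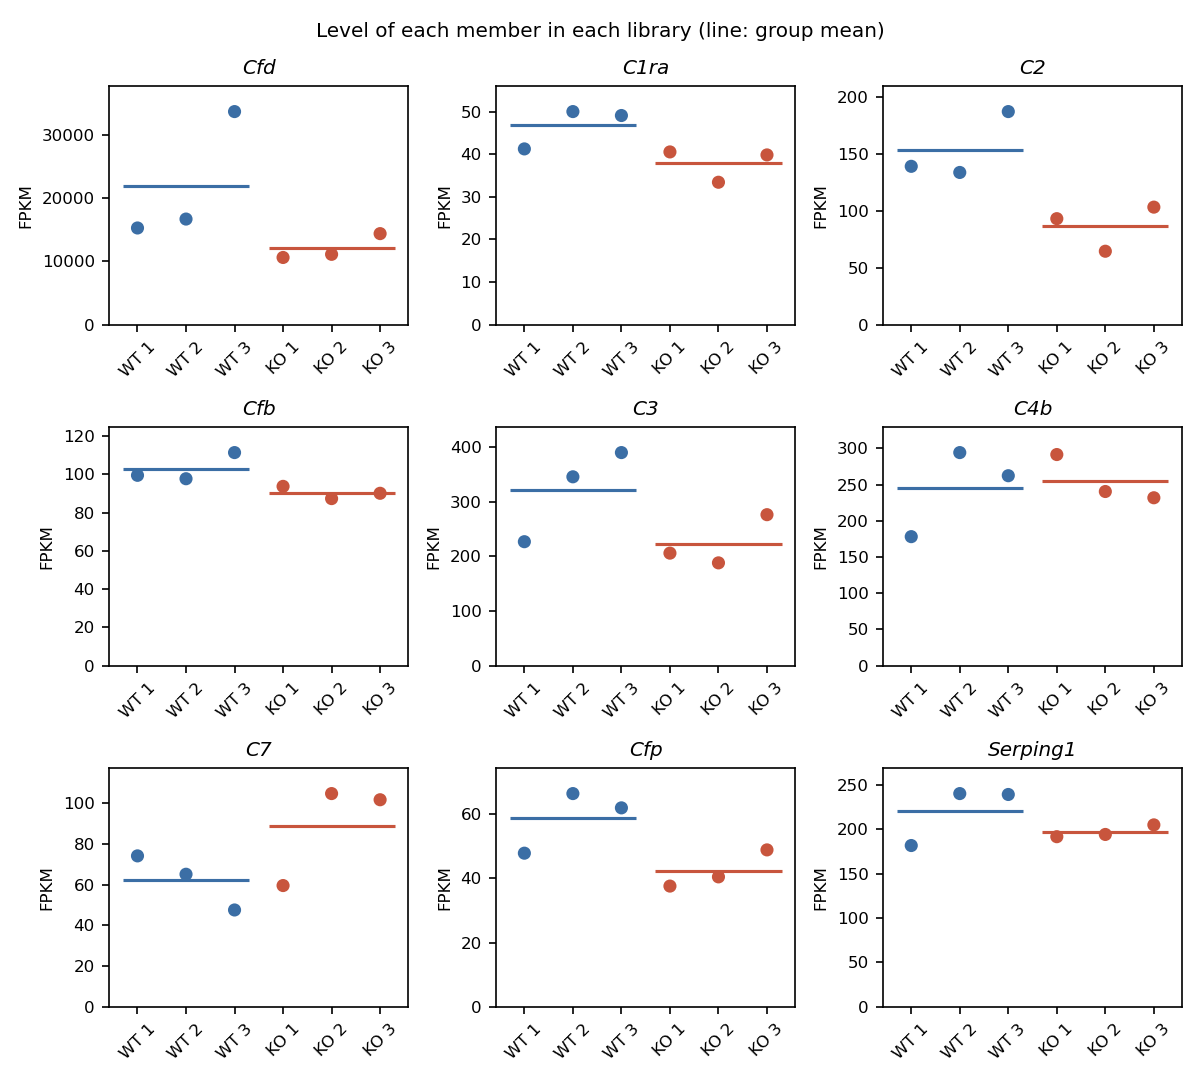
FPKM (vertical axes, starting at 0) of each of the 9 genes in the 6 libraries, with points in blue for WT and red for libraries labelled KO and a line at each group's mean. Cfd, C1ra, C2 and Cfb show no overlap between the groups, WT 3 stands highest for Cfd at 33638 FPKM, and WT 1 stands lowest of all for C4b at 178 FPKM.

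Levels in FPKM are scaled by length, so the genes can be ordered. Cfd was the gene with the highest mean of the whole table, at 16946 FPKM over the 6 libraries. It ranked 1 in 5 libraries and 2 in WT 1, where only Car3 was higher. C3, with a mean of 272 FPKM, C4b with 250 FPKM and Serping1 with 209 FPKM came next, and the ranges of these neighbours overlapped. C2 followed at 120 FPKM, Cfb at 96.7 FPKM and C7 at 75.6 FPKM, and each overlapped the next. Cfp had a mean of 50.6 FPKM and C1ra one of 42.3 FPKM. The 8 other genes together summed to between 4.01% and 9.56% of the level of Cfd.

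Cfd (ENSMUSG00000061780, chromosome 10, 79890853 to 79892655, plus strand, GRCm38) encodes factor D, the protease that cuts factor B. Its level was 15267, 16675 and 33638 FPKM in the WT libraries and 10613, 11107 and 14377 FPKM in those labelled KO. WT 3 was about as far above the other WT libraries as they were from 0, and the highest library labelled KO lay just under the lowest WT library. The means were 21860 ± 10224 FPKM (SD, n = 3) in WT and 12032 ± 2046 FPKM in the libraries labelled KO, a ratio of 0.55. On the log2 scale Cfd differed by -0.78 (SE 0.43, 95% interval from -1.81 to 0.25), and limma's adjusted p was 0.478. Without WT 3 the log2 difference was -0.42 (limma adjusted p = 0.392). Cfd transcripts took between 2.49% and 5.27% of all FPKM of a library.

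The Cfd transcript is short, at 922 nt, and short transcripts stood high in WT 3. Relative to its own mean over the 6 libraries, Cfd was at 1.11 on the log2 scale in WT 3. The 99 other genes within 1.2 times its length and with at least 100 FPKM had a median of 0.67 there. In the libraries labelled KO Cfd was at -0.56, -0.49 and -0.12, where the medians of these genes were -0.16, -0.21 and -0.18. With each library corrected for transcript length and GC content Cfd differed by -0.79 on the log2 scale (SE 0.31, limma adjusted p = 0.267). In that setting 5 members had an unadjusted p under 0.05, all lower, against 8.59% of all genes.

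Like Cfd, the genes Adipoq, Fabp4 and Car3 were highest in WT 3 and lower in every library labelled KO than in every WT library. From WT 1 to WT 2, however, Cfd rose whereas Car3 fell from 16613 to 12873 FPKM and Fabp4 from 12500 to 12060 FPKM. Not every fat cell gene separated the groups. Adipoq, which encodes adiponectin, had 2792, 2844 and 5889 FPKM in WT and 2097, 2214 and 2496 FPKM in the libraries labelled KO. Cfd per Adipoq was 5.47, 5.86 and 5.71 in the WT libraries and 5.06, 5.02 and 5.76 in those labelled KO. The groups overlapped in this ratio, with a log2 difference of -0.11 and an exact two-sided permutation p of 0.3 (adjusted p = 0.386). Relative to the summed level of the 16 adipocyte markers, of which Car3 and Fabp4 hold the most, Cfd stood at 0.423 ± 0.084 (SD, n = 3) in WT and 0.367 ± 0.029 in the libraries labelled KO. Relative to the geometric mean of the same markers, which weights them alike, the log2 difference of Cfd was -0.36 (exact two-sided permutation p = 0.2, adjusted p = 0.3 over 9 ratios, shares and sums tested). For the ratio to the sum the log2 difference was -0.19, or -0.05 without WT 3, and the exact two-sided permutation p was 0.4 (adjusted p = 0.45), where the smallest this design allows is 0.1. Plin1, which encodes the lipid droplet coat protein perilipin, had 1097, 1222 and 1281 FPKM in WT and 1135, 1044 and 1210 FPKM in the libraries labelled KO, and its groups overlapped. Lipe, the hormone-sensitive lipase, and Plin4 overlapped as well, with log2 differences of -0.10 and 0.10. Pnpla2, a triglyceride lipase, was lowest of WT in WT 3, at 1661, 1768 and 1426 FPKM. Its groups did not overlap, with 1098, 1128 and 1369 FPKM in the libraries labelled KO (log2 difference -0.43). The adipocyte sum itself did not overlap, at 44527, 40088 and 65917 FPKM in WT against 30700, 31361 and 35947 FPKM. In bulk tissue, fewer cells of a type and less RNA per cell cannot be told apart.

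**Figure D2:**
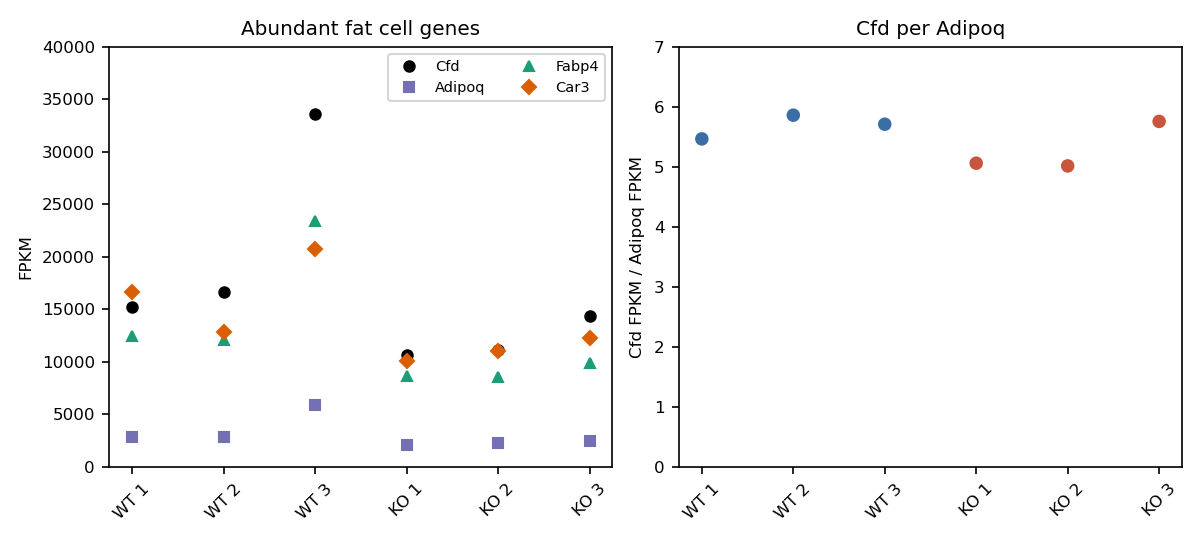
Left, FPKM of Cfd, Adipoq, Fabp4 and Car3 in each library; right, the ratio of Cfd to Adipoq, with WT in blue and libraries labelled KO in red. All 4 genes are highest in WT 3 and lower in the libraries labelled KO than in WT, while the ratio stays between 5.02 and 5.86.

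C2 (ENSMUSG00000024371, chromosome 17, 34862604 to 34898265, minus strand) encodes the protease that joins C4b in the classical C3-cleaving enzyme, and it showed the lowest p among the members. C2 had 139, 134 and 187 FPKM in the WT libraries and 93.3, 64.6 and 103 FPKM in those labelled KO. The gap between the groups was wider than that between WT 1 and WT 2, but narrower than the range within either group. KO 2 was the lowest. The means were 154 ± 29.5 FPKM (SD, n = 3) and 87.1 ± 20.1 FPKM, a ratio of 0.567. On the log2 scale C2 differed by -0.82 (SE 0.22, interval from -1.34 to -0.30). Limma's adjusted p was 0.223, a value that the adjustment also gave to Zfp251 and other genes. The unadjusted limma p was 0.00738 for C2 and 0.000594 for Zfp251. With sample weights C2 was the 1 member past the threshold (log2 difference -0.71, limma adjusted p = 0.0475, between 0.0475 and 0.741 over the alternatives). The weights were 4.02 for WT 1 and 0.142 for WT 3. In that setting 3.66% of all genes were called lower.

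Cfb, the paralogous protease of the alternative pathway, lies 85 bp from C2 on the same strand and differed less between the groups. Cfb (ENSMUSG00000090231, chromosome 17, 34856374 to 34862518) had 99.6, 97.8 and 111 FPKM in the WT libraries and 93.8, 87.4 and 90.2 FPKM in those labelled KO. The groups did not overlap, but the log2 difference was -0.18 with an interval from -0.44 to 0.08 (limma adjusted p = 0.505). The ratio of C2 to Cfb was 1.40, 1.37 and 1.68 in WT and 0.994, 0.74 and 1.15 in the libraries labelled KO. Thus C2 exceeded Cfb in every WT library and in 1 library labelled KO. The log2 difference of the ratio was -0.64, and the exact two-sided permutation p was 0.1, the smallest possible, or 0.3 after adjustment over the 9 ratios, shares and sums tested. The annotated transcript Gm20547 overlaps most of Cfb and part of C2. It holds 53.2% of the 100-base stretches of the C2 transcript and 81% of those of Cfb, and it was given 0.154 to 0.899 FPKM, far less than either gene.

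C1ra (ENSMUSG00000055172, chromosome 6, 124512405 to 124523443, plus strand) encodes the C1r protease, which activates C1s. C1ra had 41.2, 49.99 and 49.1 FPKM in the WT libraries and 40.5, 33.4 and 39.8 FPKM in those labelled KO. KO 1 lay just below WT 1, so the separation was narrow. The log2 difference was -0.30 with an interval from -0.60 to 0.01 (limma adjusted p = 0.384). Its near copy C1rb shares 34.5% of the 100-base stretches of the C1ra transcript and was given at most 0.027 FPKM in any library.

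The 2 central proteins, C3 and C4b, carry the thioester that binds them to targets, and their levels did not move alike. C3 (ENSMUSG00000024164, chromosome 17, 57203970 to 57228136, minus strand) had 227, 345 and 390 FPKM in the WT libraries and 206, 188 and 276 FPKM in those labelled KO. KO 3 overlapped the WT range, and WT 1 lay closer to KO 1 than to the other WT libraries. The log2 difference was -0.50 with an interval from -1.09 to 0.09 (limma adjusted p = 0.436), and it was -0.73 without WT 1 (limma adjusted p = 0.184) and -0.34 without WT 3. C4b (ENSMUSG00000073418, chromosome 17, 34728380 to 34743882, minus strand) had 178, 294 and 262 FPKM in the WT libraries and 292, 240 and 232 FPKM in those labelled KO. The libraries labelled KO lay inside the WT range. The log2 difference was 0.08 with an interval from -0.43 to 0.59 (limma adjusted p = 0.882), and it was -0.13 without WT 1 and 0.49 with sample weights. C4a, a close copy that holds 16.5% of the 100-base stretches of the C4b transcript, was not analysed here, so C4b may include fragments from it. The ratio of C3 to C4b was 1.27, 1.17 and 1.49 in WT and 0.706, 0.782 and 1.19 in the libraries labelled KO, with overlap. Its log2 difference was -0.59 (exact two-sided permutation p = 0.2, adjusted p = 0.3 over the 9 tests).

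C7 (ENSMUSG00000079105, chromosome 15, 4988762 to 5063740, minus strand), which joins the forming membrane pore, had the highest log2 difference of the set. C7 had 74.2, 65.2 and 47.6 FPKM in the WT libraries and 59.6, 105 and 102 FPKM in those labelled KO. KO 2 and KO 3 lay above all WT libraries, but KO 1 lay within the WT range. The log2 difference was 0.48 with an interval from -0.14 to 1.11 (limma adjusted p = 0.472). It was 0.74 without KO 1, 0.30 without WT 3 and 0.06 with sample weights, so its size changed with single libraries.

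The regulators Cfp and Serping1 both had lower means in the libraries labelled KO. Cfp (ENSMUSG00000001128, chromosome X, 20925454 to 20931555, minus strand), whose protein properdin promotes the alternative pathway, had 47.9, 66.5 and 62.0 FPKM in WT and 37.6, 40.5 and 48.9 FPKM in those labelled KO. KO 3 lay just above WT 1, the lowest WT library. The log2 difference of Cfp was -0.46 with an interval from -0.85 to -0.07 (limma adjusted p = 0.30). Serping1 (ENSMUSG00000023224, chromosome 2, 84765387 to 84775444, minus strand) had 182, 241 and 240 FPKM in WT and 192, 194 and 205 FPKM in the libraries labelled KO. WT 1 was the lowest of all 6. The log2 difference of Serping1 was -0.15 with an interval from -0.51 to 0.21 (limma adjusted p = 0.671), and it was 0.04 with sample weights.

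**Figure D3:**
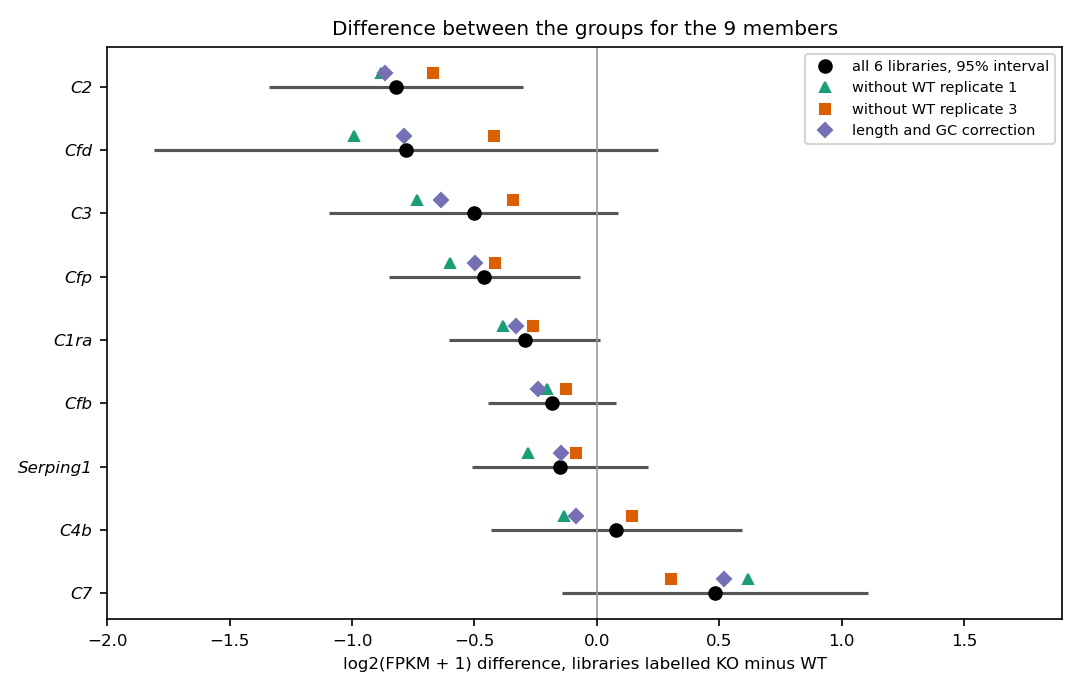
Difference in log2(FPKM + 1) between libraries labelled KO and WT for the 9 genes (black points with 95% intervals), with the value without WT 1 (green), without WT 3 (orange) and after a correction for transcript length and GC content (purple). The intervals of C2 and Cfp exclude 0 before adjustment over all genes, and C4b changes sign without WT 1 and after the correction.

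WT 1 and WT 3 bore on these counts in different ways. Without WT 1, C3, Cfp and Serping1 joined the genes whose libraries labelled KO all lay below WT, which made 7 of 9, against 20.2% of all genes. Without WT 1, limma called 482 genes in all (3.84%), 469 of them higher and only 13 lower in the libraries labelled KO. Among the called genes were 0 members. At an unadjusted p under 0.05 stood 4 members, all lower, against 5.27% of all genes. Without WT 3, 4 of 9 lay below, against 17.9% of all genes, and 7 of 9 had a negative difference. With quantile normalization the differences of Cfd, Cfb and Serping1 were 0.07, 0.05 and 0.11. Cfd is among the 2 highest genes in each library, and that scaling gives such genes nearly the same value in each.

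The stretches before the start of 3 members are shown because Cfd and C3 had lower and C7 higher means in the libraries labelled KO. C1ra and Cfp, the other members with a window, had lower means too and are described without their letters. The windows were searched for 6 motifs, among them letters bound by C/EBP proteins, transcription factors of fat cells and of the acute phase response. RefSeq start windows on GRCm38.p6 were matched for 5 of the 9 members, and the 250 bases before the start are printed 5′ to 3′. Capitals mark TTNCNNAA (C/EBP) or TATAAA (the TATA box) on either strand. The windows lie at chr10:79890603-79890852 (plus strand), chr17:57228137-57228386 (minus strand) and chr15:5063774-5064023 (minus strand).
Cfd: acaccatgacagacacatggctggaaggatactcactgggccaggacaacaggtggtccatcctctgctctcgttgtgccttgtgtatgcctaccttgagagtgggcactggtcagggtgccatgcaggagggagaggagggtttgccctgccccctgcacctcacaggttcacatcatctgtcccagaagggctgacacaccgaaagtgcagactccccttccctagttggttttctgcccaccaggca
C3: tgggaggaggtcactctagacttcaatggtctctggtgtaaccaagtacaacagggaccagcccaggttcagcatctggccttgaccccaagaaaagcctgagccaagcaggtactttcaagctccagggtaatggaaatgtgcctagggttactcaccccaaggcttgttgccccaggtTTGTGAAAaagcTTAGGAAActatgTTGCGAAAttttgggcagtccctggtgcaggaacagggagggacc
C7: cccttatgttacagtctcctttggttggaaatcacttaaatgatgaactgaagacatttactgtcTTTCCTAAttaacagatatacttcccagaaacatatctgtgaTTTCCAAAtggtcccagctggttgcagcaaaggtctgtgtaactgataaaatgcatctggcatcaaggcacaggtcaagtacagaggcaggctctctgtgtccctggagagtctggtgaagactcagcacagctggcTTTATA
The C3 window holds 3 matches to TTNCNNAA within 70 bases of the start, and 2.61% of all 32851 windows of this length hold 3 or more. C7 holds 2 such matches and a TATAAA on the reverse strand directly before the RefSeq start. On the minus strand the gene position given above for C7 starts at 5063740, whereas the window ends at 5063774. The TATAAA therefore lies further from that gene start. C1ra holds 2 matches to TTNCNNAA, and Cfd and Cfp hold neither motif. The C1ra window lies at chr6:124512371-124512620 (plus strand), before the RefSeq start. The gene position given above starts at 124512405, so both C1ra matches lie inside the gene as placed there. AGGTCA, a half-site of PPAR factors, occurs once in C3 and once in C7, and in 14.0% of all windows. The IRF motif, the E-box CACGTG and the NF-kB motif, found in 2.98%, 6.02% and 7.25% of all windows, had no match in the 5. Of all windows, 36.8% hold at least 1 TTNCNNAA and 12.4% a TATAAA, so single matches are frequent. No overlap occurred between these matches in the windows shown. A match describes the letters and says nothing about binding.

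Across the 6 libraries, members moved together in part. On log2(FPKM + 1), Pearson's r over 6 libraries was 0.935 between C3 and Cfp, 0.932 between C2 and Cfb and 0.906 between C3 and Serping1. Cfd had r = 0.991 with Adipoq, and its r with C3, C2 and Cfb lay between 0.866 and 0.898. C4b stood apart, with r between -0.40 and 0.61 with the other members. C7 had negative r with all 8 others, from -0.87 with Cfb to -0.40 with C4b. With Foxj1, 7 members had r from -0.965 for Cfp to -0.775 for Cfb, whereas C4b had -0.306 and C7 had 0.631. The part of ciliated-cell transcripts in the differences was not tested. These values describe libraries that share groups and normalization.

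The tested genes most like Cfd over the 6 libraries were Yipf4 (r = 0.999), Adprh (0.998) and Cdo1 (0.996). Cdo1, which oxidises cysteine, had 963, 1057 and 1975 FPKM in WT and 686, 692 and 831 FPKM in the libraries labelled KO. The genes most like C3 were Tmeff2 (r = 0.992), Stab1 (0.991), a scavenger receptor of macrophages and endothelium, and Cebpg (0.990), a C/EBP family member. Those most like C4b were Eya2 (r = 0.995), Rbm34 (0.986) and Tmem154 (0.964), and those most like C7 were Dpy19l3 (0.985), Prc1 (0.984) and Sema4d (0.983). Pearson's r compares the pattern and not its size: Yipf4 ran from 31.6 to 42.9 FPKM and Adprh from 12.4 to 17.1 FPKM, a narrower range than that of Cfd. The genes most like C7 were low, with Dpy19l3 at 1.59 to 2.19, Prc1 at 0.51 to 2.15 and Sema4d at 1.14 to 2.85 FPKM. These likenesses are descriptions over 6 libraries.

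The rest of the complement system was read from a list of 53 genes, of which 51 were in the table and 30 passed the filter. Of these 30, 26 were lower and 4 higher in the libraries labelled KO, where 59.2% of all genes tested lay below 0. The median log2 difference of the 30 was -0.28, against -0.05 for all genes tested. None of the 30 passed limma's adjusted threshold. At an unadjusted p under 0.05, 8 were lower (4.43% of all genes) and 2 higher (9.13% of all genes). In 8 of the 30 every library labelled KO lay below WT, which is 26.7% against 12.2% of all genes. In 2 every one lay above, 6.67% against 10.1% of all genes.

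Among the partners of C1ra, all 5 tested genes of the C1 complex list had lower means. The recognition subunits C1qa and C1qb, made mainly by macrophages, had log2 differences of -0.48 each (limma adjusted p = 0.305 and 0.266). C1qa had 174, 229 and 245 FPKM in WT and 154, 135 and 171 FPKM in the libraries labelled KO, without overlap. C1qc, chosen after its values were seen, had a log2 difference of -0.40. C1rl, a C1r-like protease, had 6.29, 6.21 and 5.85 FPKM in WT and 4.09, 3.92 and 4.11 FPKM in the libraries labelled KO, a narrow spread in both groups. Its log2 difference was -0.50 (limma adjusted p = 0.223). C1s1, which encodes the protease that C1r activates, differed by -0.18 (limma adjusted p = 0.617). Its copy C1s2 was below the filter, at 0.356 to 0.814 FPKM.

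In the lectin route, 4 of 9 listed genes were tested and all 4 had lower means. Fcna, a ficolin that recognises sugars, had 54.4, 74.8 and 104 FPKM in WT and 42.3, 35.8 and 39.7 FPKM in the libraries labelled KO. The groups did not overlap, and its log2 difference was -0.92 (limma adjusted p = 0.223). Masp1, the associated protease, and Colec12, a collectin receptor, had log2 differences of -0.35 and -0.30 (limma adjusted p = 0.453 for both). Mbl1 and Mbl2 were listed at 0 in all 6 libraries.

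Beside C7, 2 other terminal components passed the filter. C6, which binds the complex just before C7, had 25.8, 28.9 and 56.4 FPKM in WT and 17.6, 20.3 and 34.0 FPKM in the libraries labelled KO, with overlap. Its log2 difference was -0.58 (limma adjusted p = 0.507), opposite in sign to that of C7. C8g had -0.02 (limma adjusted p = 0.979). Hc, the C5 gene, and C9, C8a and C8b did not pass the filter.

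Among 11 tested regulators 8 had lower and 3 higher means. Vsig4, a macrophage receptor for C3 fragments, had 2.62, 2.53 and 5.40 FPKM in WT and 1.43, 0.619 and 1.31 FPKM in the libraries labelled KO. The groups did not overlap, and its log2 difference was -1.06 (limma adjusted p = 0.223).

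Cfi, the protease that inactivates C3b and C4b, and Susd4, a membrane regulator, were higher. Cfi had 6.08, 6.76 and 3.49 FPKM in the libraries labelled KO, and WT 1 reached 2.65 FPKM, WT 2 0.029 FPKM and WT 3 a listed 0. Susd4 had 13.5, 15.9 and 7.29 FPKM in those labelled KO and 5.81, 0.572 and 0.017 FPKM in the WT libraries. The log2 differences were 2.01 and 2.52 (limma adjusted p = 0.223 for both). Both genes had the order of libraries seen for ciliated and epithelial transcripts, high in KO 1 and KO 2, lower in KO 3 and WT 1 and near 0 in WT 2 and WT 3. The part of those cells in the difference was not tested.

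**Figure D4:**
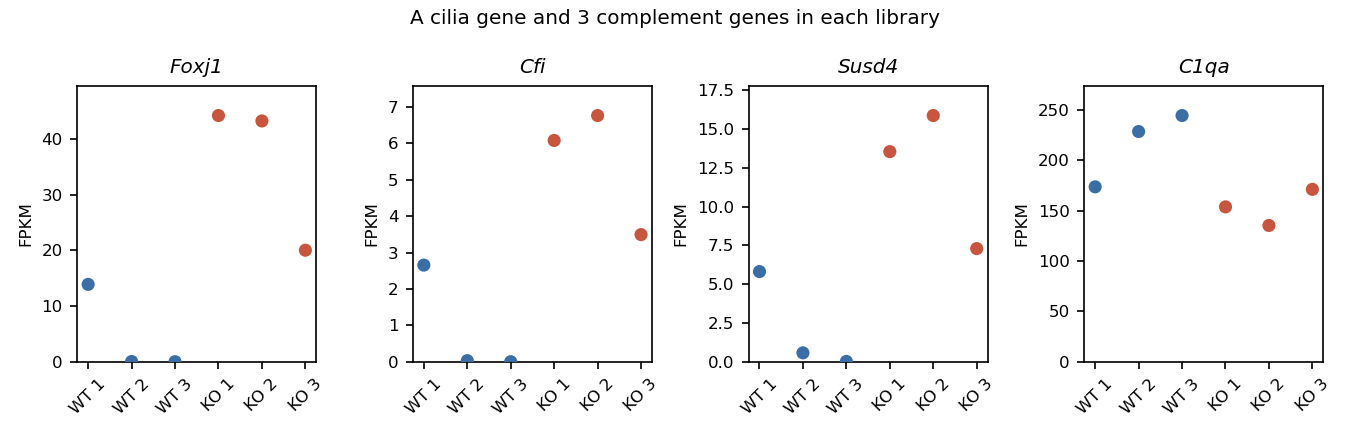
FPKM (vertical axes, starting at 0) of the cilia gene Foxj1, the regulators Cfi and Susd4 and the C1q gene C1qa in the 6 libraries, WT in blue and libraries labelled KO in red. Foxj1, Cfi and Susd4 share 1 pattern, with WT 1 between WT 2 and WT 3 near 0 and the libraries labelled KO above, whereas C1qa is highest in WT 2 and WT 3.

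Of 8 tested receptors and receptor partners, 7 had lower means. C5ar1, the C5a receptor of myeloid cells, had 15.9, 26.4 and 17.1 FPKM in WT and 12.7, 12.2 and 15.4 FPKM in the libraries labelled KO. The groups did not overlap, and its log2 difference was -0.50 (limma adjusted p = 0.346). C3ar1, the C3a receptor, differed by -0.46 (limma adjusted p = 0.511), while Calr, a chaperone that also binds C1q, had -0.25 (limma adjusted p = 0.484).

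**Figure D5:**
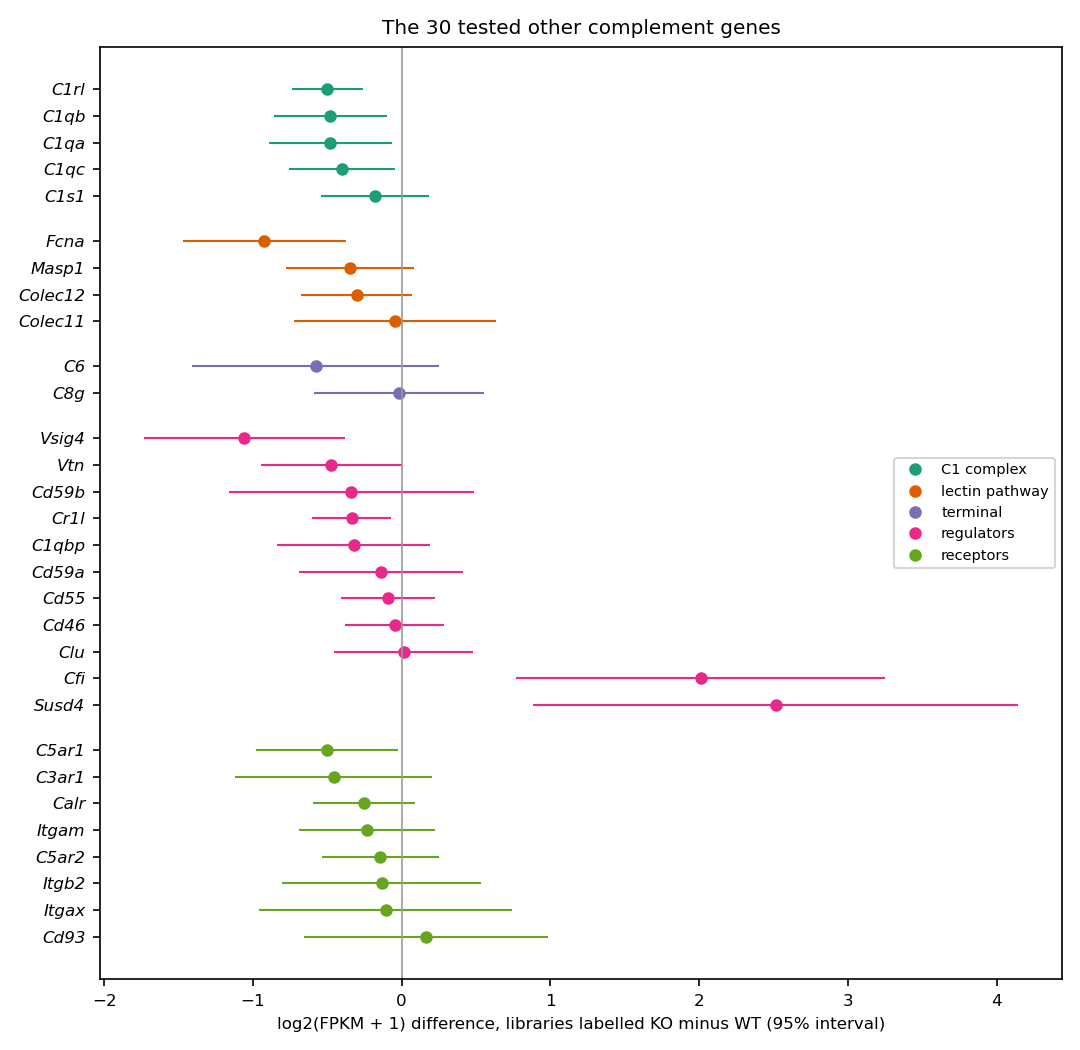
Difference in log2(FPKM + 1), libraries labelled KO minus WT, with 95% intervals for the 30 tested complement genes outside the 9, grouped by role. Most points lie left of 0, with Vsig4 and Fcna at -1.06 and -0.92, and Cfi and Susd4 lie to the right at 2.01 and 2.52.

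Markers of other cells that make complement moved with the groups to differing degrees. Of all genes tested, 59.2% had a log2 difference below 0, and the median was -0.05. At an unadjusted limma p under 0.05, 4.43% of all genes were lower and 9.13% higher. Of 11 macrophage markers, 9 had lower means (median log2 difference -0.25), and their summed level was 670 to 983 FPKM in WT and 640 to 900 FPKM in the libraries labelled KO, with none at 0. Of 16 adipocyte markers 15 were lower (median -0.42). Of 10 neutrophil markers 5 were tested and all had lower means, with summed levels of 27.2 to 49.0 against 8.48 to 15.1 FPKM. S100a8 and S100a9 did not overlap, with means of 12.7 and 11.8 FPKM in WT against 2.99 and 0.773 FPKM. The groups overlapped for Elane, Csf3r and Retnlg. Ly6g was listed at 0 in all libraries. Of 12 progenitor markers 6 were lower (median -0.05), with overlapping sums of 2085 to 2446 and 1770 to 2203 FPKM. Of 10 mesothelial markers 5 were lower and 5 higher, and the 3 with an unadjusted p under 0.05 were the keratins Krt8, Krt18 and Krt19. Of 12 ciliated-cell markers 11 were tested and all 11 were higher, with sums of 6.74 to 61.3 FPKM in WT and 74.1 to 162 FPKM in the libraries labelled KO. All 7 tested of 8 epithelial markers were higher as well. Of 6 erythroid markers 5 were tested and all 5 were lower at an unadjusted p under 0.05 (median -1.23), with overlapping sums of 1299.5 to 3533 FPKM in WT and 505 to 1372 FPKM in the libraries labelled KO. Both tested B cell markers of 6 listed were lower at that p too (median -0.64), with sums of 6.16 to 11.2 against 3.61 to 4.62 FPKM. Of 8 hepatocyte markers, whose cells are the main source of blood complement, 1 passed the filter, and their sums were 5.12 to 11.3 FPKM in WT and 5.18 to 8.48 FPKM in the libraries labelled KO. Of 10 tested acute phase genes 8 were lower (median -0.44), among them Cebpb, which encodes a C/EBP factor, at -0.60 without overlap. Cebpd, which encodes another C/EBP factor, differed by -0.26 with overlap. The 2 higher genes were Lcn2 at 3.06, the largest difference of the list, and Stat3 at 0.04, both with overlap. The part of macrophages, fat cells, neutrophils, B cells and blood in the complement differences was not tested.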

How the data were processed

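Libraries were stranded mRNA libraries from TRIzol-extracted epididymal fat RNA, per the labels' protocols. The submitters' processing notes name the build mm10 and the tools Cuffdiff 2.2.1, Cufflinks and STAR 2.5.4. Annotation, filters and library scaling were not given in the sources used here. The authors deposited 1 column per library, read here as FPKM from those tools and from the values, since no header names the unit. Of 21853 rows, 24 repeats of a symbol were dropped in favour of the highest mean. Genes whose mean reached 1 FPKM entered limma 3.58.1 (R 4.3.3) on the log2(FPKM + 1) scale, with group as the single term, a mean-variance trend and Benjamini-Hochberg adjustment over 12539 genes. This scale understates the change of low genes. The fit was tested on simulated data. Log2 ratios had exact permutation tests (scipy 1.17.1). Positions, lengths, GC content and shared 100-base stretches came from GENCODE vM21 (GRCm38, the assembly of mm10). The members and lists were chosen with earlier results of these data known, and 1 further complement gene is not reported here. Named genes were the members, up to 3 per pathway list by p, the 3 most alike for 4 members, close copies and references. Alternatives were other pseudocounts, filters and scalings, no trend, sample weights, a length and GC correction, a replicate block and each library left out. Counts of groups that do not overlap without WT 1 or WT 3 were added after seeing the data.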

Additional observations from a re-analysis of the deposited data

How the results depend on the processing

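C1ra, C2, C3, Cfp and C7 kept the sign of their difference in all 16 alternatives run. C4b, at 0.08, turned to -0.13 without WT 1, to -0.02 without KO 1 and to -0.087 after the length and GC correction. With quantile normalization Cfd became 0.074, Cfb 0.045 and Serping1 0.109, and with sample weights Serping1 became 0.043; the cause was not tested for Cfb and Serping1. C2 passed the adjusted threshold with sample weights (-0.71), where 970 genes passed in all. With a library left out, the number of genes past the threshold ran from 0 to 482, Cfd from -0.99 to -0.42, C2 from -0.96 to -0.62, C3 from -0.73 to -0.34, C4b from -0.13 to 0.23 and C7 from 0.30 to 0.74. C1ra ran from -0.38 to -0.21, Cfb from -0.22 to -0.13, Cfp from -0.60 to -0.37, Serping1 from -0.28 to -0.08 and Cfd relative to the adipocyte sum from -0.33 to -0.05. The median of the other complement genes ran from -0.355 to -0.211 with a library left out, and it was -0.109 with no filter on low values, where 47 genes entered.

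The replicate number was also used as a block. Deviations of same-numbered libraries had r = 0.228, -0.20 and 0.22 for numbers 1, 2 and 3. For differently numbered libraries r ran from -0.477 to 0.426. With 3 libraries per group these values cannot decide whether the numbers are pairs, and the main fit did not pair them. With the replicate block 0 genes passed, as without it, and C2 had a log2 difference of -0.82 (limma adjusted p = 0.0889). Median-ratio scaling moved the median of all genes from -0.053 to 0.008. Total depth is unknown, so no counting error is given.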
